A study of Mus musculus with 12 samples.

Results

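The reported targets of miR-222-3p examined here were 9 mouse genes, Cdkn1b, Cdkn1c, Bbc3, Bcl2l11, Kit, Icam1, Timp3, Ets1 and Ppp2r2a. They were taken by name from a list of genes described elsewhere as direct targets. Their levels in these tumours were not used for the choice, although earlier results of these data were known. All 9 were found among the 35944 genes to which the deposited transcripts belonged. Levels were measured by mRNA sequencing of 12 4T1 tumours, 3 in each of 4 groups. 4T1 is a mouse mammary carcinoma line, and 100000 of its cells had been placed under the skin of the flank in BALB/c females of 6 to 8 weeks of age. From 5 days later, every mouse received extracellular vesicles (EVs) beside the tumour, 3 µg at intervals of 2 days, and tumours were taken on day 21. The EVs came from MS-1, a single mouse endothelial line, and were electroporated with a mimic of the nematode miRNA cel-miR-67 (ctrl) or of miR-222-3p, miR-183-5p or miR-142-5p, so that the controls had also received vesicles and a mimic. The question addressed by the comparisons is whether the reported targets were lower in tumours that had received miR-222-3p-EVs. The libraries were made from polyadenylated RNA and give no measure of the mimic itself, and whole tumours were sequenced, so that fewer cells of a type and less RNA per cell cannot be told apart.

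A miRNA guides an Argonaute protein to mRNAs that pair with its seed, the bases near its 5′ end, and the bound mRNA is translated less and often degraded. miR-222-3p is encoded beside miR-221 and shares its seed. The pair is best known as a promoter of proliferation that lowers the cell cycle inhibitor p27, encoded by Cdkn1b, and as a brake on the receptor Kit in endothelial cells and blood precursors. A fall of a target's mRNA can be seen by sequencing, whereas a block of translation alone cannot.

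To show what the matches in these genes look like, the mature miRNAs are given first, from RefSeq on GRCm38.p6 and with bases 2 to 8 (the seed) in capitals. The miR-221-3p sequence is shown because its seed is identical to that of miR-222-3p, and the other injected mouse miRNAs because their seeds differ.
miR-222-3p: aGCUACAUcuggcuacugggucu
miR-221-3p: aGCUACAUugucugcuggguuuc
miR-142-5p: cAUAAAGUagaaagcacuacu
miR-183-5p: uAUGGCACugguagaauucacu

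The 3′ untranslated region (UTR) of each gene's transcript with the longest annotated 3′ UTR (GENCODE M21, GRCm38) was searched on the sense strand for ATGTAGCA (8mer), ATGTAGC (7mer-m8), TGTAGCA (7mer-A1) and TGTAGC (6mer), each match being counted once under the longest form. An 8mer or 7mer-m8 was present in 7 of the 9 genes. Among 14620 genes with a 3′ UTR that were tested for expression, 11% held either form and 3.84% held an 8mer. The 7 genes are listed with 1 match each in capitals, the 8mer where there was one, and with the flanking bases that the pairing could extend into. Positions are those of the printed stretch, all of which lie in the 3′ UTR of a single exon.
Cdkn1b, chr6:134924415-134924442, plus strand: cctctaaaagcattggATGTAGCAttgc
Cdkn1c, chr7:143458921-143458948, minus strand: ctgggacctttcgttcATGTAGCAggaa
Bbc3, chr7:16317315-16317342, plus strand: ggactttttctgcaccATGTAGCAtact
Bcl2l11, chr2:128162350-128162377, plus strand: tgtcagaacccagcgtATGTAGCAtttg
Kit, chr5:75654976-75655003, plus strand: taatgatgggagatatATGTAGCAagac
Ets1, chr9:32756934-32756961, plus strand: ggtttatacactggaaATGTAGCAgcat
Timp3, chr10:86348269-86348296, plus strand: taatttaaaatcatttATGTAGCtgaga

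Kit was the gene with a second 8mer, at chr5:75656507-75656534, close to the end of its UTR. Bcl2l11 and Ets1 each held a 7mer-m8 beside the 8mer. The remaining genes had weaker matches. Ppp2r2a held 2 matches of the 7mer-A1 form, and Icam1 held a 6mer alone, a length of match present in 33% of the 14620 UTRs.
Icam1, chr9:21028072-21028099, plus strand: cctgggggatgcacactTGTAGCctcag
Ppp2r2a, chr14:67015925-67015952, minus strand: tcattcttactgtggctTGTAGCAttcc
Long UTRs hold more matches of any kind. Among UTRs within 20% of its length, an 8mer or 7mer-m8 was found in 22.4% for Cdkn1b, whose UTR has 3439 bases, and in 27.8% for Bcl2l11, whose UTR has 4218 bases, but in 4.3% for Cdkn1c and 5.71% for Bbc3, whose UTRs have 688 and 971 bases. Matches to the other injected miRNAs were also present in some genes, namely a 7mer-m8 of miR-142-5p in Kit and Ppp2r2a and of miR-183-5p in Cdkn1b and Ppp2r2a, with 2 of the latter in Timp3. A match is a description of these letters and not evidence of binding.

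**Figure D1:**
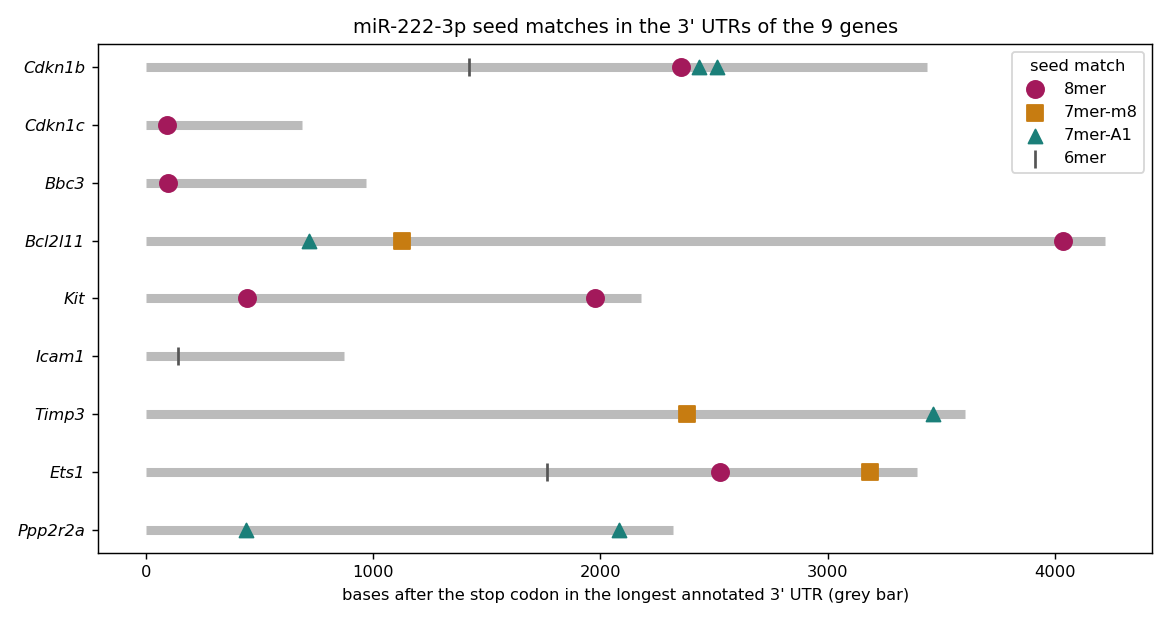
Seed matches of miR-222-3p in the longest annotated 3′ UTR of each gene. The x axis gives bases after the stop codon, the grey bar is the UTR, and the symbols mark 8mer, 7mer-m8, 7mer-A1 and 6mer matches. The matches of Cdkn1c and Bbc3 lie close to the stop codon, and the 8mer of Bcl2l11 lies 174 bases before the end of its UTR.

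The libraries held between 20285968 and 27021401 estimated reads. All 5 carcinoma epithelial markers were detected in every tumour, with summed TPM (an abundance per unit of transcript length that has the same total in each library) between 1265 and 1855. A pair of libraries stood apart. B cell markers summed to 419 TPM in miR-142-5p tumour 3 and to between 1.02 and 2.79 in the other tumours, and skeletal muscle markers summed to 274 TPM in miR-183-5p tumour 3 against 7.501 to 14.4 elsewhere. The log2 fold changes of the tested targets in the miR-222-3p comparisons were also computed without these 2 libraries. The TPM levels, transcript shares, shares of genes with a seed match and correlations below include both libraries unless tumours are stated as left out. In addition, Gm28661 held between 7.13% and 41.8% of the summed reads of Gm28661 and the mitochondrial gene mt-Co2 in 8 libraries. It held at most 0.324% in miR-183-5p tumour 3 and all 3 miR-222-3p tumours. This difference cannot be told apart from the group in the comparisons with ctrl and with miR-142-5p. Of the tumours in the other 3 groups, miR-183-5p tumour 3 alone lay on the low side.

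Levels of different genes were compared in TPM. Cdkn1b stood highest with 68.0 ± 6.97 TPM (SD, n = 12), followed by Ppp2r2a with 59.5 ± 4.08 and Bcl2l11 with 46.4 ± 11.2. Ets1 followed with 42.5 ± 11.2 TPM, Icam1 with 35.9 ± 6.40 and Timp3 with 21.9 ± 2.73. Bbc3, with 7.56 ± 2.05 TPM, and Kit, with 7.48 ± 3.75, lay close together, and Cdkn1c came last with 0.436 ± 0.295. Bbc3 exceeded Kit in 7 of 12 tumours and Bcl2l11 exceeded Ets1 in 9, so that these neighbours in the order did not differ beyond their spread, whereas Timp3 exceeded Bbc3 and Icam1 exceeded Timp3 in all 12. Variation between tumours also differed. The highest tumour exceeded the lowest 3.95-fold for Kit in normalised counts, 2.09-fold for Bbc3 and Ets1, and 1.27-fold or less for Ppp2r2a and Cdkn1b.

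Values within a gene are given below as normalised counts, which are estimated reads scaled for the depth of the library and the mean length of the gene's transcripts. Of the 9 genes, 8 passed the filter of at least 10 reads in at least 3 tumours, and Cdkn1c did not. None of the 8 passed an adjusted p-value of 0.05 in miR-222-3p tumours against ctrl (DESeq2 Wald test across 15485 genes, Benjamini-Hochberg adjustment), where 0.0259% of all genes did. None did against miR-142-5p (0.0389% of all genes), against miR-183-5p (0.0324%) or against the other 3 groups together (0.0453%). At an unadjusted p under 0.05 the count was again 0 of 8 in each of these comparisons, beside 2.31%, 3.62%, 3.25% and 2.07% of all genes. edgeR's quasi-likelihood test also called 0. Log2 fold changes against ctrl were below 0 for 6 of the 8 genes, compared with 52% of all genes, and their median was -0.044 over the 8 genes and -0.0077 over all genes. Against miR-142-5p they were below 0 for 6 of 8 (51% of all genes), as they were against miR-183-5p (49.2%) and the other 3 groups (51.2%). Groups did not overlap for 1 gene against ctrl (Icam1), where this was so for 5.52% of all genes, and for 1 gene against miR-183-5p (Bbc3), where it was so for 9.07%. All 8 overlapped against miR-142-5p (6.23% of all genes did not) and against the other 3 groups (0.413%). The same ctrl tumours or miR-222-3p tumours enter several of these comparisons, which are therefore not independent.

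**Figure D2:**
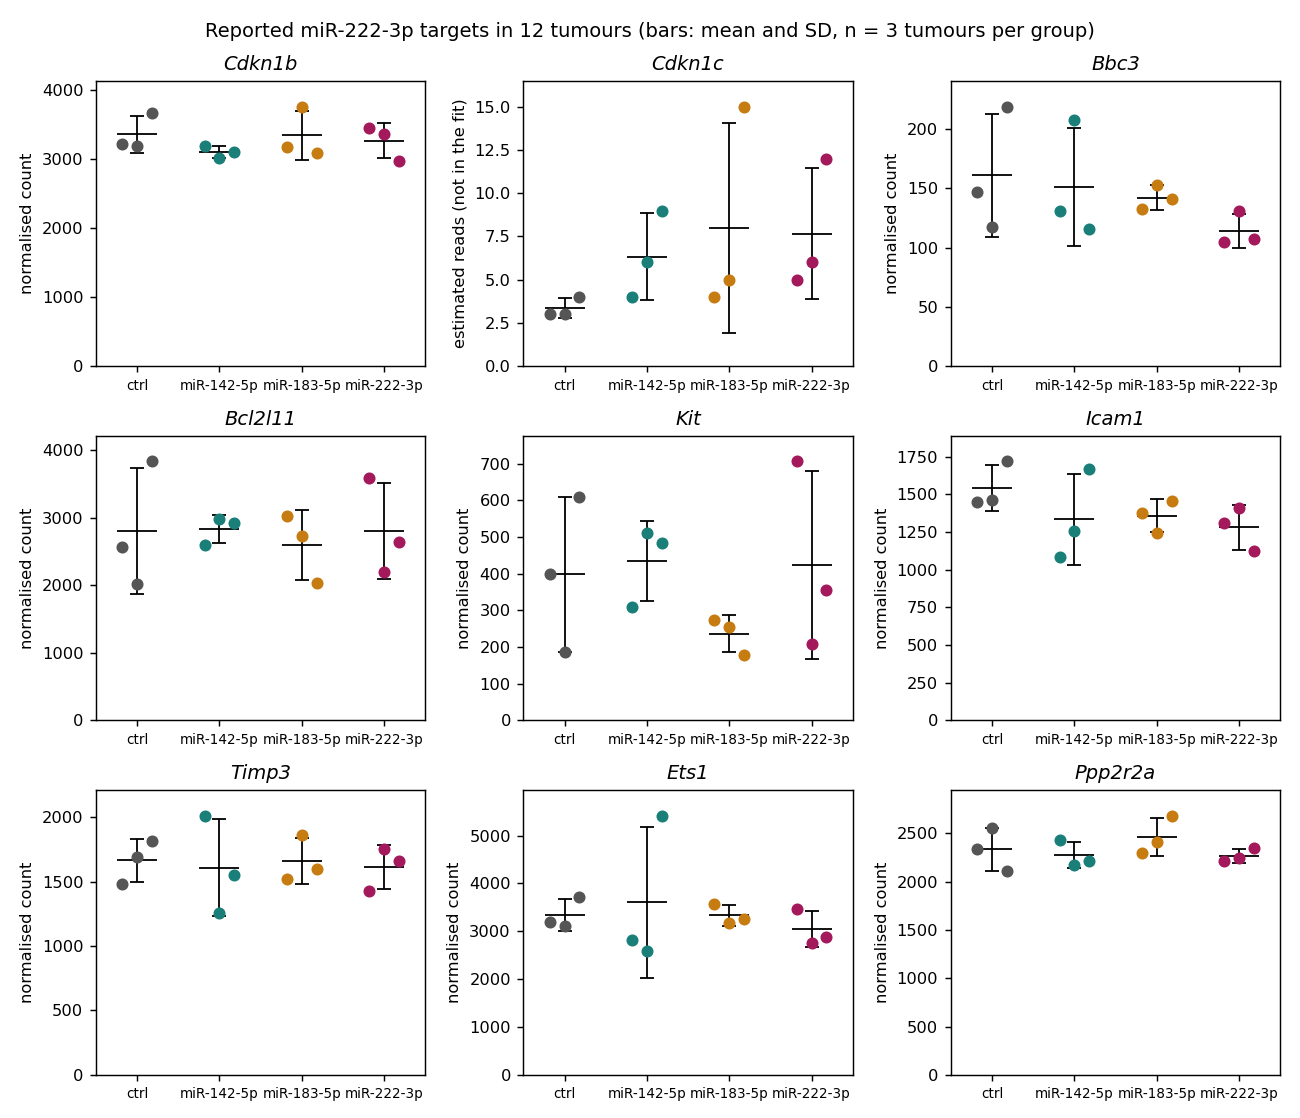
Levels of the 9 genes in 12 tumours. Each point is a tumour, the y axis is the normalised count (estimated reads for Cdkn1c, which was not tested), and bars give the mean and SD of 3 tumours per group. Among the 8 tested genes the miR-222-3p tumours overlap ctrl tumours except for Icam1, where they lie between 1121 and 1409 and ctrl lies between 1447 and 1719. The few Cdkn1c reads, 3 to 4 in ctrl and 5 to 12 with miR-222-3p, do not overlap, but they are not scaled for depth. In TPM, Cdkn1c overlaps between these groups.

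The cell cycle inhibitors were considered first. Cdkn1b encodes p27, which binds and inhibits cyclin-dependent kinases and holds cells before DNA replication. Its normalised counts were 3214, 3186 and 3663 in the ctrl group and 3450, 3356 and 2973 in miR-222-3p tumours. The highest of the 6 was a ctrl tumour and the lowest a miR-222-3p tumour, with the others interleaved. The miR-142-5p tumours held 3183, 3013 and 3101, and the miR-183-5p tumours 3174, 3749 and 3084. The log2 fold change of miR-222-3p against ctrl was -0.04 with a 95% interval from -0.26 to 0.18 (adjusted p = 1 by DESeq2), which corresponds to a level between 0.834 and 1.13 times that of ctrl. A fall of Cdkn1b mRNA to below 0.834 of ctrl thus lay outside the interval of this fit. The SE was 0.11 here, 0.14 with these groups fitted alone and 0.21 with the Gm28661 library set as a covariate, so the bound depends on the model. Against the other 3 groups together the interval ran from 0.882 to 1.13 times their level.

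Cdkn1c encodes p57, a relative of p27 that is imprinted and best known from development. It held 3, 3 and 4 estimated reads in the ctrl tumours and 5, 6 and 12 in miR-222-3p tumours. There were 4, 6 and 9 reads in the miR-142-5p tumours and 4, 5 and 15 in miR-183-5p tumours. The reads in ctrl were all lower than those with miR-222-3p, but they are not scaled for depth. In TPM the groups overlapped, with 0.426, 0.148 and 0.224 in ctrl and 0.202, 0.215 and 0.667 with miR-222-3p. At so few reads the gene did not enter the test.

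Bbc3 and Bcl2l11 encode Puma and Bim, BH3-only proteins that start apoptosis by binding the survival proteins of the Bcl-2 family. Bbc3 counts were 147, 118 and 219 in ctrl and 104, 131 and 107 in miR-222-3p tumours. All miR-222-3p tumours lay below the ctrl mean, but the groups overlapped. Bbc3 counts were 131, 208 and 115 in miR-142-5p tumours and 132, 153 and 141 in miR-183-5p tumours, the latter being all above the miR-222-3p tumours although by little. Bbc3 had a log2 fold change of -0.49 against ctrl, with an interval from -1.05 to 0.06 (adjusted p = 1, unadjusted p = 0.0819 by DESeq2). It was -0.40 against miR-142-5p, -0.32 against miR-183-5p and -0.40 against the other 3 groups, each with an interval that included 0. The value against ctrl ranged from -0.68 to -0.21 when tumours were left out in turn, the smallest difference being without ctrl tumour 3, and it was -0.24 when transcript length was not taken into account.

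Bcl2l11 counts were 2557, 2009 and 3829.9 in ctrl and 3582, 2189 and 2637 in miR-222-3p tumours, so that each group had a tumour well above its others. The miR-142-5p tumours held 2590.3, 2971 and 2918 and the miR-183-5p tumours 3023, 2726 and 2025. The log2 fold change against ctrl was 0.0021, with an interval from -0.47 to 0.48 (adjusted p = 1 by DESeq2). Because of this spread, levels between 0.720 and 1.39 times that of ctrl lay within the interval.

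Kit is the receptor tyrosine kinase for stem cell factor and is carried by mast cells, blood precursors and some endothelial cells. It was the most variable of the 8 genes, with counts of 399, 187 and 608 in ctrl and 706, 207 and 357 in miR-222-3p tumours. The highest tumour of all was thus a miR-222-3p tumour. Counts were 308, 511 and 483 in miR-142-5p tumours and 274, 256 and 179 in miR-183-5p tumours, where all 3 lay below every miR-142-5p tumour and below the ctrl mean. Non-overlap between the latter groups was seen for 12.4% of all genes. The log2 fold change of miR-222-3p was 0.09 against ctrl, with an interval from -0.75 to 0.93, and 0.84 against miR-183-5p, with an interval from -0.0014 to 1.68 (adjusted p = 0.999, unadjusted p = 0.0504 by DESeq2). The former value was -0.50 without miR-222-3p tumour 1 and 0.54 without ctrl tumour 3. The latter was 0.25 without miR-222-3p tumour 1 and 1.17 without miR-222-3p tumour 2. It was 0.48 without the length correction and 1.24 with the Gm28661 library set as a covariate (adjusted p = 0.949, unadjusted p = 0.0442 by DESeq2). That covariate rests on miR-183-5p tumour 3, the tumour with skeletal muscle markers. The size of the value thus varied with the tumours and the model. Between miR-183-5p and miR-142-5p the log2 fold change was -0.88 (adjusted p = 0.588, unadjusted p = 0.0412 by DESeq2), in a comparison where 0.0518% of all genes passed the adjusted and 7.94% the unadjusted threshold.

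Icam1 encodes an adhesion molecule that holds leukocytes at the vessel wall and is induced by inflammatory signals. Its counts were 1447, 1465 and 1719 in ctrl and 1311, 1409 and 1121 in miR-222-3p tumours, which were all lower. Icam1 had a log2 fold change of -0.27 with an interval from -0.60 to 0.06 (adjusted p = 1, unadjusted p = 0.110 by DESeq2). Without 1 tumour it lay between -0.35 and -0.18. Counts were 1084, 1254 and 1669 in miR-142-5p tumours and 1379, 1243 and 1456 in miR-183-5p tumours, and the miR-222-3p tumours overlapped both groups. The log2 fold changes against these groups were -0.06 and -0.09. Icam1 is also the gene with the weakest seed match of the 9, and whether the match bears on these values was not tested.

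Timp3 encodes a matrix-bound inhibitor of metalloproteinases. Counts of 1486, 1696 and 1817 in ctrl faced 1425, 1757 and 1663 in miR-222-3p tumours, and the groups overlapped widely. Timp3 had a log2 fold change of -0.05 (95% interval -0.39 to 0.30). Timp3 counts were 2012, 1259.9 and 1555 in miR-142-5p tumours, which held both the highest and the lowest tumour of the series, and 1520.2, 1866 and 1601 in miR-183-5p tumours.

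Ets1 encodes a transcription factor of lymphoid and endothelial cells. Counts were 3187, 3102 and 3720.3 in ctrl and 3469.7, 2761 and 2887 in miR-222-3p tumours, with a log2 fold change of -0.13 (95% interval -0.60 to 0.33). For miR-183-5p they were 3579, 3170.4 and 3248. Those of miR-142-5p tumours were 2812, 2584 and 5411, the last in the tumour rich in B cell markers. The comparison with miR-142-5p rested on that tumour, since its log2 fold change was -0.25 with it and 0.17 without it. T cell markers summed to 147 TPM there against 21.97 to 52.2 TPM elsewhere. In the comparison with ctrl the SE of Ets1 was 0.24 in the fit of all tumours and 0.16 with these groups fitted alone. It was 0.14 without miR-142-5p tumour 3 and miR-183-5p tumour 3, so the width of that interval depends on the tumours fitted.

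Ppp2r2a encodes a regulatory B subunit of the phosphatase PP2A. It varied little, like Cdkn1b, with counts of 2335, 2559.6 and 2111 in ctrl and 2210.1, 2241 and 2349 in miR-222-3p tumours. It had 2427, 2177 and 2216 in miR-142-5p tumours and 2297, 2415 and 2681 in miR-183-5p tumours. The log2 fold change against ctrl was -0.04 with an interval from -0.25 to 0.17, a range of 0.839 to 1.12 times the level of ctrl. Together with Cdkn1b, it thus had the narrowest interval of the 8 genes.

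**Figure D3:**
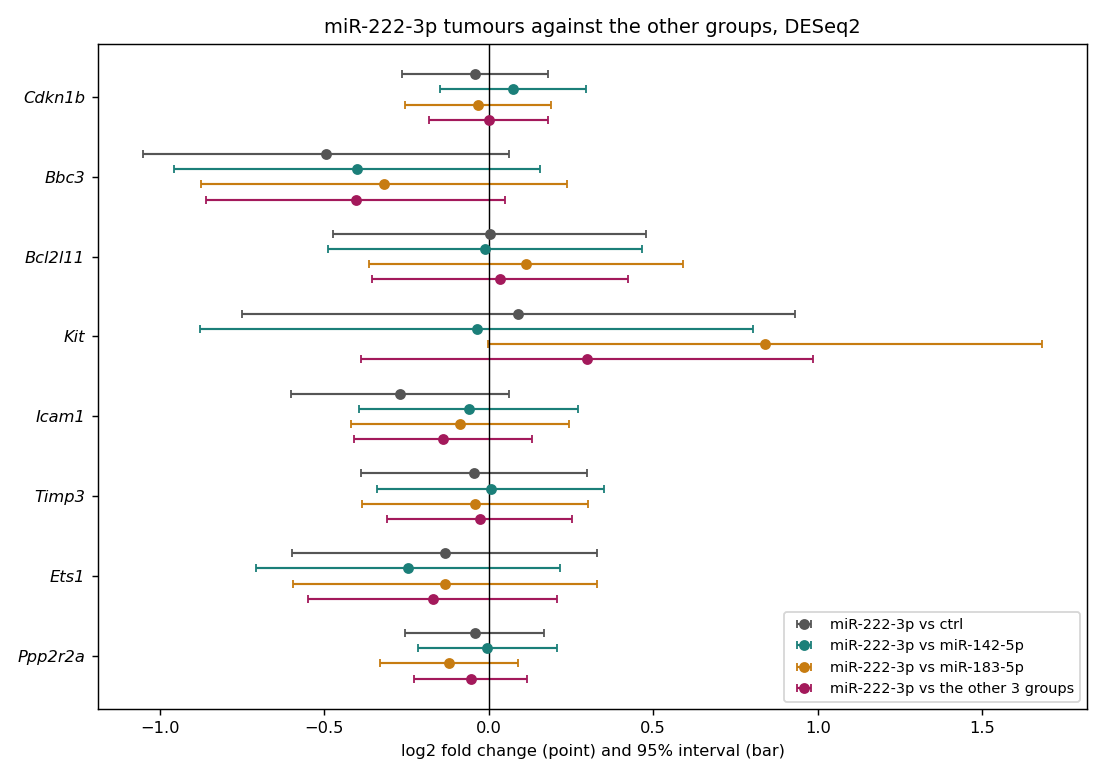
Log2 fold changes of 8 genes in miR-222-3p tumours against ctrl, against each other miRNA group and against the other 3 groups together. Points are estimates of the DESeq2 fit and bars their 95% intervals, all of which include 0. Intervals are narrowest for Cdkn1b and Ppp2r2a and widest for Kit.

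A gene's sum over transcripts can include transcripts without the match. The share of TPM in transcripts whose 3′ UTR held an 8mer or 7mer-m8 was therefore computed in each tumour. It was 100% for Cdkn1b, between 96.5% and 100% for Timp3 and between 93.5% and 98.5% for Ets1. For these genes the gene level is that of the transcripts with a match. It was lower and more variable for Bcl2l11 (52.7% to 78.3%), Bbc3 (40% to 76.95%) and Kit (15.1% to 54.8%). In Kit, a transcript with a retained intron, Kit-208, alone held 44.2% of the TPM on average over tumours. Ppp2r2a was unusual in another way, as 73.3% of its TPM was assigned to Ppp2r2a-203, a transcript annotated as subject to nonsense-mediated decay.

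For Bbc3 the value depended on which transcripts were counted. Its transcripts with a match held 4.50, 3.63 and 4.96 TPM in the ctrl tumours and 3.88, 4.60 and 4.18 TPM in the miR-222-3p tumours. The groups overlapped, and the log2 fold change was -0.05 ± 0.23 (SE; adjusted p = 1 by DESeq2), compared with -0.49 ± 0.28 for the whole gene. The rest of the Bbc3 level lay in transcripts with no annotated 3′ UTR, which in ctrl tumour 3 made up more of the gene than in any other tumour. For Bcl2l11 the log2 fold change over transcripts with a match was 0.10 ± 0.23 and for Kit -0.32 ± 0.74 (adjusted p = 1 for both by DESeq2). None of the 6 genes examined in this way passed the threshold in a comparison of the miR-222-3p tumours. The split of reads among overlapping transcripts is an estimate, and its own error was not used here.

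**Figure D4:**
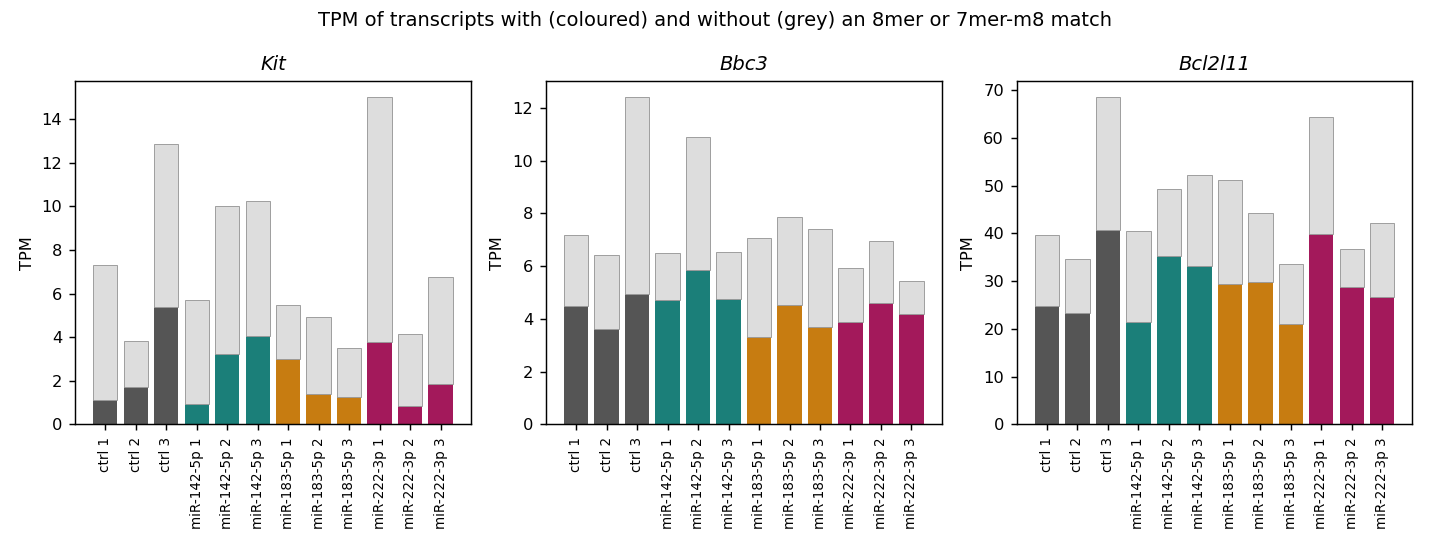
TPM of Kit, Bbc3 and Bcl2l11 in 12 tumours, divided into transcripts with (coloured by group) and without (grey) an 8mer or 7mer-m8 match to miR-222-3p. Bars start at 0 and 1 bar is 1 tumour. The coloured part of Bbc3 stays between 3.31 and 5.84 TPM while its total ranges from 5.42 to 12.4 TPM.

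Other genes of the same pathways were examined as 8 lists with 96 different genes, of which 90 passed the count filter. None was called in any miR-222-3p comparison by DESeq2, and none by edgeR against ctrl. At an unadjusted p under 0.05 the counts were 1 against ctrl (Mmp2), 2 against miR-142-5p (Pmaip1 and Mmp3), 1 against miR-183-5p and 1 against the other 3 groups (Adam17 in both), these genes being named here because of their values. Over all genes the shares were 2.31%, 3.62%, 3.25% and 2.07%, so that 1 or 2 of 90 was no more than the background. Against ctrl 53 of 90 were below 0, with a median log2 fold change of -0.03. Of the cyclins, cyclin-dependent kinases and their other inhibitors, 0 of 20 rose and 0 fell, from Ccne2, which drives entry into S phase, at -0.40 ± 0.23 (SE) to Ccnd3 at 0.12 ± 0.18. Among the Bcl-2 family, 0 of 12 changed, from Pmaip1, which encodes the BH3-only protein Noxa, at -0.23 ± 0.19 to the survival gene Bcl2l1 at 0.04 ± 0.14.

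The genes around the surface receptors and proteases gave the same counts. Of 7 genes of the Kit ligand and mast cells, none was called, with Kitl, the ligand of Kit, at -0.29 ± 0.35 and Hdc, which makes histamine, at 0.17 ± 0.36. The 7 adhesion molecules and integrins that act with Icam1 were all below 0 against ctrl, as were 52% of all genes. They ran from Vcam1 at -0.36 ± 0.30 to Itgal, a chain of the Icam1 receptor LFA-1, at -0.04 ± 0.22, and 0 of 7 passed the test. Of these genes, 7 were below 0 against miR-142-5p, 4 against miR-183-5p and 6 against the other 3 groups. Among 11 metalloproteinases and their other inhibitors, Mmp2, a gelatinase, had the highest value at 0.70 ± 0.31 (adjusted p = 1, unadjusted p = 0.0254 by DESeq2) and Adamts1 the lowest at -0.31 ± 0.21. Fibroblast markers, which include no gene of that list, summed to between 145 and 482 TPM in the miR-222-3p tumours and between 147 and 286 TPM in ctrl, and their part in the Mmp2 value was not tested.

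Among 10 ETS factors, 0 were called, from Gabpa at -0.23 ± 0.19 to Etv4 at 0.12 ± 0.15. Among 11 other subunits of PP2A, 0 were called, from Ppp2r2d, another B subunit, at -0.19 ± 0.13 to the scaffold Ppp2r1a at 0.13 ± 0.17. A further list held 14 other reported targets of miR-221 and miR-222, of which 13 were tested. Here 11 of 13 were below 0 against ctrl, with a median of -0.15, and 0 passed the test. The range ran from Socs1, an inhibitor of cytokine signalling, at -0.52 ± 0.35 to Sod2, the mitochondrial superoxide dismutase, at 0.17 ± 0.20. The median was -0.06 against miR-142-5p and -0.02 against miR-183-5p, and 10 and 9 of 13 genes were below 0.

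All tested genes whose 3′ UTR held an 8mer were then described in the same way. Of these 562 genes, 52.3% were below 0 against ctrl, compared with 51.2% of 11954 genes with no match of 7 or 8 bases. The shares were 51.4% and 50.8% against miR-142-5p, 41.8% and 49.9% against miR-183-5p, and 47.9% and 51% against the other 3 groups. Genes with and without a match were not matched for UTR length. These shares are given as a description, since genes measured in the same tumours are not independent, and their difference was not tested. None of the 562 genes was called in these comparisons by DESeq2. At an unadjusted p under 0.05 there were 13, 11, 15 and 12 (2.31%, 1.96%, 2.67% and 2.14%). The shares of the genes with no match were 2.19%, 3.6%, 3.17% and 1.94%.

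How the genes varied together was described over the 12 tumours, as correlations of log2(normalised count + 1). Tumours share the depth and cell content of their library, and the 28 pairs of genes are not independent. Kit and Bcl2l11 had the closest relation (Pearson r = 0.89, Spearman rho = 0.80), and r was 0.82 without the 2 tumours farthest from the median. Both stood opposite to Ppp2r2a, with r = -0.79 for Kit and -0.80 for Bcl2l11. Without the 2 tumours farthest from the Ppp2r2a median these values were -0.64 and -0.60. Icam1 and Ets1 were positively related (r = 0.67), and Cdkn1b had no relation above 0.43 with another of the genes.

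Among 11542 genes with a mean normalised count of at least 100, those most like Kit were Gas6, which encodes a ligand of the TAM receptor kinases (r = 0.98), and Cav1, which encodes the caveolar protein caveolin-1 (r = 0.96). Gas6 counts in the 3 tumours with most Kit were 695, 628 and 679, whereas they were 204, 232 and 255 in the 3 with least Kit. The 5 endothelial markers were all detected in every tumour, and their sum was highest in ctrl tumour 3 (131 TPM) and miR-222-3p tumour 1 (128 TPM), the tumours in which Kit and Bcl2l11 were also highest. Elsewhere it lay between 73.2 and 115 TPM. Across tumours its log2 value had r = 0.85 with Kit, 0.81 with Bcl2l11 and -0.81 with Ppp2r2a. Mast cell markers summed to between 1.52 and 6.61 TPM, and all 5 were above 0 in every tumour. Their sum had r = 0.24 with Kit, and Kit also had r = 0.68 with macrophage, -0.75 with fibroblast and -0.67 with keratinocyte markers. Bcl2l11 had r = 0.555 with macrophage, -0.57 with fibroblast and -0.52 with keratinocyte markers, and Ppp2r2a had -0.76, 0.66 and 0.55. The part of these cell types in the values of Kit, Bcl2l11 and Ppp2r2a was not tested.

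The most similar genes differed for the other members. For Bcl2l11 they were Fbxl20 and Tmem87b (r = 0.96 for both), for Ets1 Ripor2 (r = 0.91), and for Ppp2r2a the interferon-induced gene Isg15 (r = 0.93) and Ap1s1 (r = 0.92). For Ets1 the value with Ripor2 was 0.85 without miR-142-5p tumours 2 and 3, and for Ppp2r2a that with Isg15 was 0.87 without miR-183-5p tumour 3 and ctrl tumour 2. The value of Bbc3 with Zfp574, 0.84 over all tumours, was 0.42 without ctrl tumour 3 and miR-142-5p tumour 2, and so rested on them. Icam1 was most like Dclre1b (r = 0.90) and Ltn1 (r = 0.89), Timp3 most like Kntc1 (r = 0.89) and Fndc1 (r = 0.86), Cdkn1b most like Ap5m1 and Ccdc173 (r = 0.88 for both), and Bbc3 most like Zfp574 and then Zfp959 (r = 0.81, and 0.72 without the same tumours). With so many genes compared over 12 tumours, high values arise for any gene, and no shared function is implied.

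**Figure D5:**
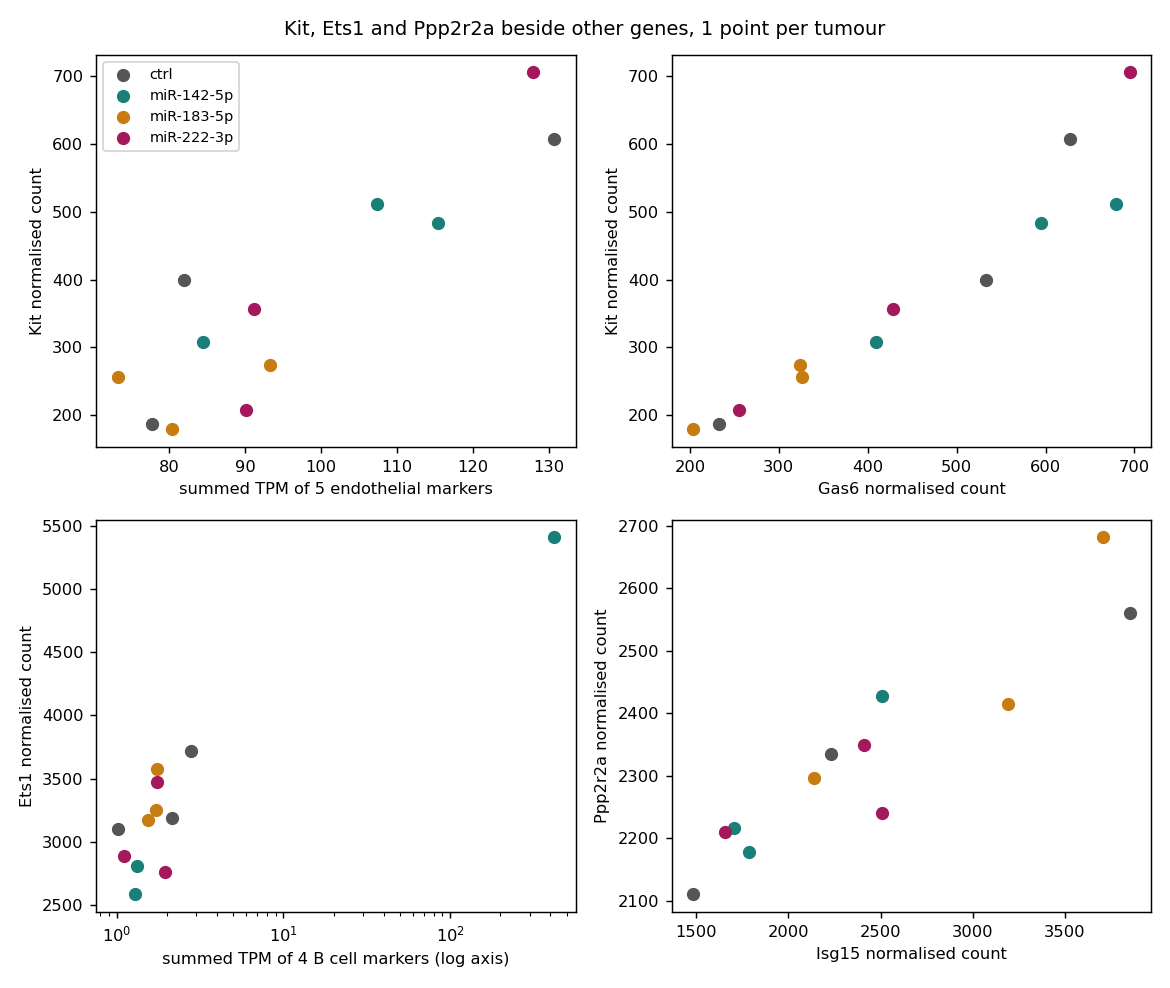
Kit against endothelial markers and against Gas6, Ets1 against B cell markers (log x axis), and Ppp2r2a against Isg15, with 1 point per tumour and colours for groups. The tumours with the highest Kit counts, 706 and 608, hold the highest endothelial sums, and a single miR-142-5p tumour with 419 TPM of B cell markers holds the highest Ets1 count, 5411.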

How the data were processed

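RNA was extracted from 12 tumours (4 groups of 3, assigned from the labels) and sequenced with a stranded mRNA kit. The authors quantified reads with Salmon on GRCm38, and the deposited tables give, per transcript, the estimated count of reads, the TPM and the effective length. The annotation release is named differently in the methods and the tables. Of 118783 transcripts, 116710 (98.3%) matched GENCODE M21. Unmatched ones held at most 0.671% of reads.

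Counts were summed per gene and rounded, with TPM-weighted mean length as offset, and 15485 genes reached the filter of 10 reads in 3 libraries. DESeq2 1.42.0 in R 4.3.3 fitted the 12 libraries together (Wald test, threshold 0.05), and the script was tested on simulated data. Intervals are the estimate ± 1.96 SE. Libraries within groups differed by more than sampling noise. The labels do not say whether tumours of a group shared a cage or a vesicle batch, and p-values measure the spread between these tumours. Tables were handled with Python 3.11.15.

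Genes named were the 9 targets, the 2 genes most correlated with each tested target, and in each list any gene called or else those with the highest and lowest change against ctrl (mean count at least 100). A further gene under this rule is not reported here. Targets, lists and alternatives were chosen with earlier results of these data known.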

Additional observations from a re-analysis of the deposited data

How the results depend on the processing

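The number of targets called stayed at 0 under every alternative taken alone, in the 4 miR-222-3p comparisons and the 3 between other groups. So did the number of list genes called against ctrl. The alternatives changed the tool (edgeR 4.0.16), the scaling (TMM within DESeq2), the filter (none, 24230 genes, or 50 counts in each tumour, 11728 genes), the length offset (left out), the samples (the compared groups alone, or 1 tumour fewer), the model (the library set or the replicate block as a term) and the threshold (0.1). Added after seeing the data were transcripts with a match only and leaving out both libraries with tissue markers. The lowest adjusted p of a target was 0.0794, for the 2 groups miR-183-5p and miR-142-5p fitted alone. That value lies under 0.1, but the threshold of 0.1 was applied to the main fit only. The intervals were the limit, since that of Kit spanned 0.594 to 1.91 times the level of ctrl. These ends are not the smallest change that the adjusted test would call, which was not determined. Between miR-183-5p and miR-142-5p, Kit stood at 0.544 times the level and was not called (adjusted p = 0.588 by DESeq2). Without a count filter Cdkn1c entered the fit and was not called against ctrl (unadjusted p = 0.578).

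Tumours with the same number had correlations of deviations from the group means between -0.58 and 0.36 over 18 pairs, mean -0.068. Those with different numbers had a mean of 0.033. Deviations cancel within a group, so these means are tied to each other. Whether the numbers pair tumours cannot be decided from them. With the replicate block the count of targets called was 0 in all comparisons.

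Some estimates, none of them called, changed sign. With the library set as covariate, the log2 fold change was 0.12 for Cdkn1b and 0.035 for Timp3 against ctrl, 0.49 for Bcl2l11 and 0.53 for Kit against miR-142-5p, 0.080 for Cdkn1b and 0.013 for Timp3 against miR-183-5p, and 0.15 for Cdkn1b and 0.045 for Timp3 against the other 3 groups. That fit estimates the set within the miR-183-5p group alone, from tumour 3, which held 274 TPM of skeletal muscle markers, against the rest of the group. It also moved values against ctrl that kept their sign, to 0.51 for Bcl2l11, 0.66 for Kit, -0.23 for Ppp2r2a and -0.42 for Icam1, and to 1.24 for Kit against miR-183-5p. Without length offset it was 0.069 for Bcl2l11 against miR-142-5p and 0.0043 for Cdkn1b against the other 3 groups, and with 50 counts in every tumour 0.0051 for the latter. With transcripts holding a match, it was -0.32 for Kit against ctrl and -0.17 against the other 3 groups, 0.071 for Bcl2l11 against miR-142-5p and 0.11 for Bbc3 against miR-183-5p. Without both libraries with tissue markers it was 0.012 for Bcl2l11, 0.047 for Kit, 0.13 for Icam1, -0.018 for Timp3 and 0.17 for Ets1 against miR-142-5p, -0.037 for Bcl2l11 against miR-183-5p and -0.0076 for Bcl2l11 against the other 3 groups. The cause was not tested.

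Leaving out 1 tumour gave, against ctrl, -0.085 to 0.028 for Cdkn1b, -0.21 to 0.30 for Bcl2l11, -0.50 to 0.54 for Kit, -0.12 to 0.037 for Timp3 and -0.11 to 0.028 for Ppp2r2a. Against miR-142-5p it gave -0.23 to 0.14 for Bcl2l11, -0.62 to 0.29 for Kit, -0.19 to 0.13 for Icam1, -0.14 to 0.20 for Timp3, -0.44 to 0.17 for Ets1 and -0.036 to 0.045 for Ppp2r2a. Against miR-183-5p it gave -0.087 to 0.059 for Cdkn1b, -0.10 to 0.26 for Bcl2l11, -0.16 to 0.00015 for Icam1 and -0.11 to 0.050 for Timp3. Against the other 3 groups it gave -0.044 to 0.061 for Cdkn1b, -0.18 to 0.18 for Bcl2l11, -0.29 to 0.62 for Kit and -0.093 to 0.055 for Timp3.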
